A study of Solanum lycopersicum with 32 samples.

Results

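Out of 81781 regions that carried histone H3 lysine 18 acetylation (H3K18ac) in tomato leaves at some time of a heat treatment, 1998 had peaks before heat and after 1 h but none after 6 h. These 1998 regions, 2.44% of all, are described here. To obtain them, all deposited peaks of the 6 H3K18ac libraries on the 12 chromosomes were merged where they overlapped or touched. A merged region of at least 150 bp was taken when a peak overlapped it in both 0 h and both 1 h libraries and in neither 6 h library. The regions were thus selected on their H3K18ac peaks, and H3K18ac values are given below as a description without a test. The tests use the 4 other targets, which had no part in the choice.

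The peaks come from ChIP-seq, in which fragments bound by an antibody are sequenced, on leaves of wild-type tomato (*Solanum lycopersicum*) cv. M82. The plants were 4 weeks old and grown at 24 °C in long days before a treatment at 45 °C of 0, 1 or 6 h. The targets were H3K18ac, the acetylations H3K9ac and H3K27ac, trimethylation of lysine 4 (H3K4me3) and RNA polymerase II (RNAPII), each with 2 libraries per time, or 30 peak lists in 15 groups. Every 1 h and 6 h library came from heated plants, so that heat cannot be told apart from time of day. Since the input came from 0 h alone, a change of the background with heat cannot be told apart either.

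Acetylation of H3 tails is set by histone acetyltransferases and removed by histone deacetylases, and it loosens the contact between DNA and nucleosome. H3K9ac, H3K18ac and H3K27ac are known from promoters, the first part of active genes and regulatory elements, while H3K4me3 is known chiefly from the start of transcribed genes. RNAPII is the enzyme that transcribes protein-coding genes, and in heat-stressed plants it is known to be redistributed towards heat shock genes.

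Fragment numbers at each summit were worked back out of the fold and the p-value in the lists. Relative depth is the lowest background that a library shows, counted as fragments per base. Libraries of the same target and time differed by less than sampling noise, with a mean chi-square per matched peak of 0.295 to 0.705 over 15 pairs against 1.04 to 10.7 over 60 pairs from different times. Each labelled pair may therefore be 1 sample, so both library values are given side by side without an SD, and no error between plants can be estimated. The tests below permute the libraries as labelled. With each pair counted once none of them can pass. Depth was 3.71 to 13.96 over the 30 libraries. For H3K18ac it was 7.54 and 7.03 before heat, 11.8 and 8.61 at 1 h, and 13.96 and 8.33 at 6 h. Both 6 h libraries were thus deeper than both at 0 h, while replicate 2 at 6 h was shallower than both at 1 h. Over the whole lists, H3K18ac peaks were narrower at 6 h. Their median width was 763 and 818 bp before heat, 845 and 806 bp at 1 h and 631 and 612 bp at 6 h. The part of depth and peak width in the missing 6 h peaks was not tested.

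Beside regions peaked in all 6 libraries the regions were narrow, and before heat they were weakly acetylated at lysine 18. Their width was 666.5 bp in the median, from 209 to 4751 bp, against 2333 bp for the 47044 regions with peaks in all 6 libraries. The median was 1272 bp for all other H3K18ac regions together. Regions peaked only at 0 h or only at 1 h were narrower than those described here, at 361 and 395 bp. The highest H3K18ac fold over background in a region was 2.37 and 2.33 in the median before heat, and 2.74 and 2.78 at 1 h. In regions peaked in all 6 libraries the corresponding medians were 4.45 and 4.39 before heat and 4.33 and 4.42 at 1 h. The peaks of the 1998 regions ranked at the 27.1 and 24.4 percentile of their own list at 0 h and at the 42.4 percentile in both lists at 1 h.

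Behind these folds stood 27 and 24 fragments at the highest summit in the median at 0 h, from 14 to 81 and from 13 to 71, and 48 and 36 fragments at 1 h, from 23 to 312 and from 17 to 286. Relative to depth, 1462 of the 1998 regions, or 73.2%, had more fragments at 1 h than at 0 h, and the median log2 ratio was 0.21. In regions peaked in all 6 libraries 48.9% had more, with a median log2 ratio of -0.017. The peaks covered 61.3% and 61.5% of a region's length on average at 0 h and 82.8% and 80.6% at 1 h. H3K18ac in these regions was thus somewhat stronger and wider at 1 h, the last time at which it was called.

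**Figure D1:**
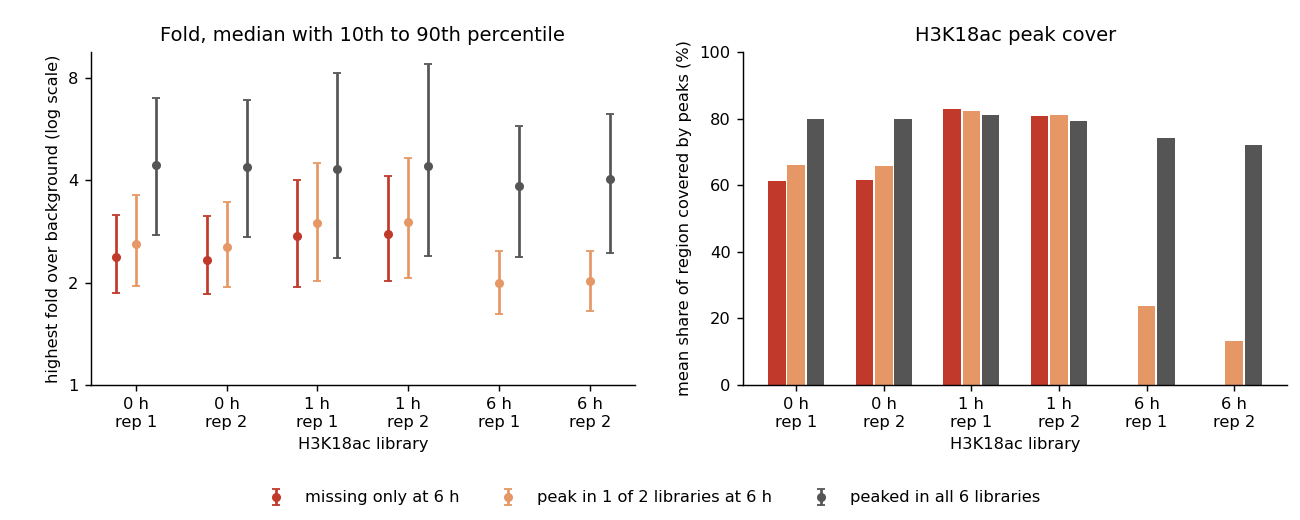
H3K18ac by library in regions missing only at 6 h, regions with a peak in 1 of 2 libraries at 6 h and regions peaked in all 6. Points are medians of the highest fold over background (log axis) with bars from the 10th to the 90th percentile over regions, and columns give the mean share of a region covered by peaks. The regions missing only at 6 h had median folds of 2.33 to 2.78 at 0 h and 1 h and no cover at 6 h.

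A further 1550 regions had peaks in all 4 earlier libraries and in 1 of the 2 libraries at 6 h, 985 in replicate 1 and 565 in replicate 2. Their 6 h peaks were weak, with a median fold of 2.00 and 2.02, and their 0 h folds of 2.60 and 2.54 were a little above those of the regions taken. Another 1683 regions lacked a 6 h peak but also lacked one in 1 of the 4 earlier libraries. Judged on replicate 2 alone the regions numbered 5285, and on replicate 1 alone 5135, since each condition then has to hold in fewer libraries. The width limit had no effect, as the narrowest merged region was 156 bp wide and the narrowest one taken 209 bp.

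The regions lay close to H3K18ac that remained. At 6 h the nearest H3K18ac peak was 379 and 409.5 bp away in the median, and 1190 and 1142 of the 1998 regions (59.6% and 57.2%) had one within 500 bp. Only 0.300% in each library were more than 10000 bp from one. Regions peaked only at 0 h or only at 1 h were also close to 6 h peaks, at 379 and 417 bp and at 469 and 495 bp in the median. For the regions missing only at 1 h the nearest 1 h peak was 5596.5 and 5566.5 bp away. When the 1998 regions were limited to those without a 6 h peak within 500 bp in either library, 721 remained.

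They also lay beside H3K4me3 peaks more often than on them. A H3K4me3 peak of unheated leaves overlapped 3.95% and 4.35% of the regions, while 50.1% and 50.3% had one within 1000 bp and 88.4% and 89.5% within 5000 bp. The median distance was 999.5 and 981.0 bp. Of regions peaked in all 6 libraries 53.2% and 55.6% overlapped a H3K4me3 peak. No genome or gene annotation of the M82 assembly version 1 was at hand, so no gene was assigned and no sequence is shown.

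**Figure D2:**
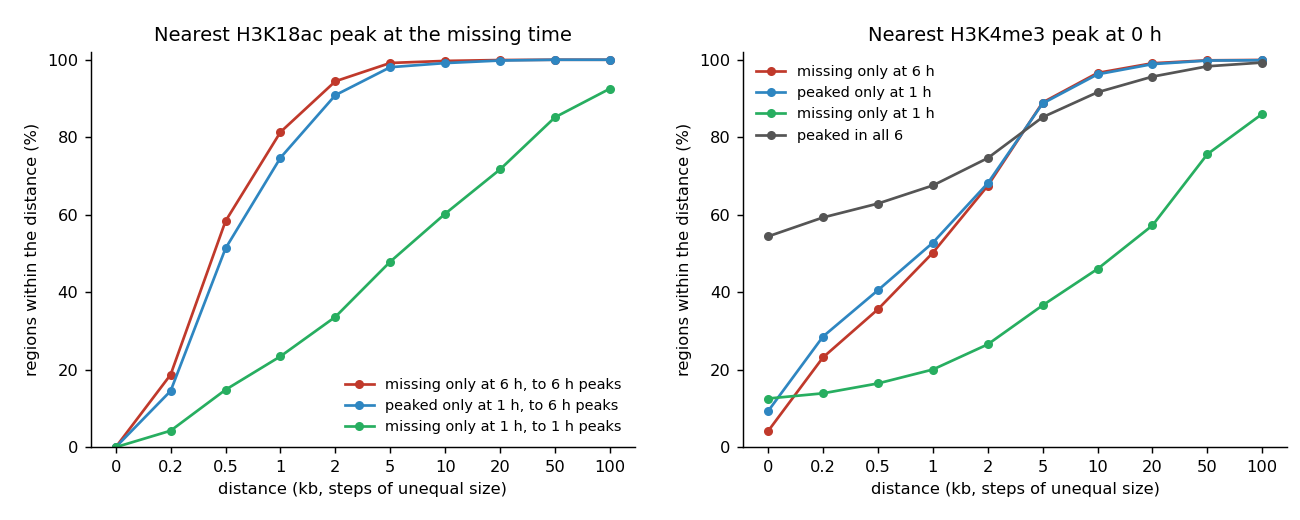
Share of H3K18ac regions with a peak within a given distance, as the mean of both libraries. Left, distance to the nearest H3K18ac peak at the time when the region had none (regions peaked only at 1 h are measured to 6 h peaks); right, distance to the nearest H3K4me3 peak at 0 h. Of the regions missing only at 6 h 58.4% lay within 0.5 kb of a remaining H3K18ac peak, against 14.8% of the regions missing only at 1 h.

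The regions were concentrated where H3K4me3 peaks were dense. When 1 Mb bins were ranked by their number of H3K4me3 peaks at 0 h, the top 25% of bins held 1663 of the 1998 regions (83.2%), against 60.1% of all other H3K18ac regions and 15.3% of the regions missing only at 1 h. The regions peaked only at 1 h were placed alike, with 83.3% in these bins. The lowest 25% of bins held 8. Their number per chromosome ran from 143 regions on chromosome 10 to 267 on chromosome 1, which is 22.1 to 26.4 per 1000 H3K18ac regions. The nearest other region of the kind was 32362 bp away in the median, and 266 regions (13.3%) had another as their direct neighbour among the H3K18ac regions, in runs of at most 4. The fullest bin, on chromosome 1 from 1000001 to 2000000, held 32 of them among 420 H3K18ac regions.

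The question put to the other targets was whether they too differed in these regions between times. Before heat the regions had more RNAPII and H3K9ac and less H3K27ac and H3K4me3 than all other H3K18ac regions, and less of all 4 than the regions peaked in all 6 libraries. RNAPII peaks overlapped 67.0% and 66.2% of them at 0 h and H3K9ac peaks 67.5% and 59.8%, whereas H3K27ac peaks overlapped 9.56% and 8.41%. In all other H3K18ac regions the shares at 0 h were 55.8% and 55.4% for RNAPII, 52.8% and 50.05% for H3K9ac, 62.5% and 61.3% for H3K27ac and 35.4% and 37.7% for H3K4me3. In regions peaked in all 6 libraries the mean of both libraries at 0 h was 76.8% for RNAPII, 76.3% for H3K9ac, 85.9% for H3K27ac and 54.4% for H3K4me3. The low H3K27ac and H3K4me3 shares also held among regions of 200 to 500 bp, where 6.64% of the 557 regions had H3K27ac and 3.50% H3K4me3 at 0 h, against 17.9% and 8.16% of all others of that width.

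RNAPII was most frequent at 1 h and stood at 6 h where it had been before heat. Its peaks overlapped 1339 and 1323 of the 1998 regions at 0 h, 1688 and 1701 at 1 h (84.5% and 85.1%), and 1321 and 1299 at 6 h (66.1% and 65.0%). Both 1 h libraries were above all others, and those of 0 h and 6 h lay close together. In all other regions the shares were 61.9% in both libraries at 1 h and 54.9% and 54.5% at 6 h. The depth of RNAPII was 9.53 and 7.98 before heat, 7.33 and 7.05 at 1 h, and 6.94 and 5.61 at 6 h, and its part was not tested.

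Among the regions with an RNAPII peak, the highest RNAPII fold was 7.04 and 7.05 in the median before heat, 9.46 and 9.26 at 1 h and 7.27 and 7.07 at 6 h. Those with a peak at 0 h ranked at the 82.4 and 81.8 percentile of their lists. The regions with a peak differ between times, and the summit may lie outside the region. At 1 h 725 and 720 of the 1998 regions (36.3% and 36.0%) held a peak from the top 10% of its RNAPII list, against 442 and 454 at 0 h (22.1% and 22.7%) and 434 and 417 at 6 h (21.7% and 20.9%). In regions peaked in all 6 libraries the 1 h shares were 23.0% and 23.2%, those before heat 19.6% and 19.4%, and those at 6 h 18.9% and 18.7%. The length covered by RNAPII peaks went the same way, with 37.1% and 35.6% of a region before heat, 68.5% and 67.9% at 1 h and 33.5% and 31.9% at 6 h. At 6 h, without H3K18ac peaks, the regions thus had RNAPII peaks at about the 0 h share and rank.

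Counted region by region, 1145 of the 1998 (57.3%) had RNAPII peaks in all 6 libraries, against 47.9% of all H3K18ac regions. RNAPII in both 1 h libraries and in none at 0 h or 6 h was found in 181 (9.06%), with 4.13% over all regions. RNAPII peaks appeared at 1 h, from none at 0 h to both libraries, in 257 (12.9%, against 6.31%), and were gone at 6 h after both 1 h libraries in 264 (13.2%, against 6.29%). Only 42 (2.10%, against 0.971%) had the course of H3K18ac itself, with RNAPII at 0 h and 1 h and not at 6 h. No RNAPII peak in any library was seen in 236 (11.8%, against 31.7%).

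H3K9ac was less frequent in the regions at each later time. Its peaks overlapped 1349 and 1194 of the regions at 0 h (67.5% and 59.8%), 961 and 1028 at 1 h (48.1% and 51.5%) and 702 and 779 at 6 h (35.1% and 39.0%), so that the libraries of the 3 times did not overlap. In all other regions the shares were 52.8% and 50.05%, 41.6% and 42.1%, and 47.5% and 47.8%, higher at 6 h than at 1 h. The regions were thus above the others at 0 h and below them at 6 h, by 12.2 and -10.6 percentage points in the mean of both libraries. The order at 6 h was the opposite among regions of 200 to 500 bp (24.1% against 8.31%) and among regions of like H3K18ac strength (34.6% against 32.9%), whereas the 0 h order was the same there.

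Among the regions with an H3K9ac peak, the highest fold of an overlapping peak was also lower at 6 h. Here too the summit may lie outside the region, and the regions with a peak differ between times. The 90th percentile of the highest H3K9ac fold was 15.7 and 16.9 before heat, 20.2 and 20.03 at 1 h and 5.48 and 6.25 at 6 h, and the medians were 3.21 and 3.19, 3.06 and 2.98, and 2.493 and 2.499. Peaks from the top 10% of their H3K9ac list lay in 193 and 165 of the regions before heat, 114 and 136 at 1 h, and 27 and 43 at 6 h. Of the 47044 regions peaked for H3K18ac in all 6 libraries, 8709 and 8012 held such a peak before heat and 7490 and 7413 at 6 h. A peak that reaches over several regions counts in each of them. The depth of H3K9ac was 7.40 and 7.38 before heat, 4.47 and 5.53 at 1 h and 5.15 and 6.49 at 6 h, and its part in these values was not tested.

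A loss of H3K9ac at 6 h, from both 0 h libraries to none at 6 h, was found in 327 of the regions (16.4%), with 4.41% over all H3K18ac regions. From 1 h to 6 h 183 lost it (9.16%, against 2.51%), whereas from 0 h to 1 h 195 did (9.76%, against 7.76%). The exact course of H3K18ac, with H3K9ac in both libraries at 0 h and 1 h and none at 6 h, was seen in 119 (5.96%, against 1.06%). H3K9ac was in all 6 libraries in 460 (23.0%, against 33.8%) and was in no library in 425 (21.3%, against 37.2%). Of the regions peaked only at 1 h for H3K18ac, 339 of 2966 (11.4%) lost H3K9ac from 0 h to 6 h, and of those missing only at 1 h 27 of 4196 (0.643%). From 1 h to 6 h 578 of the regions peaked only at 1 h lost it (19.5%), a larger share than in the regions missing only at 6 h. H3K9ac at 0 h and 1 h and not at 6 h was seen in 169 of them (5.70%), a share near that of the regions missing only at 6 h.

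More of the regions had RNAPII without H3K9ac at 1 h and at 6 h than before heat. Both had peaks in both libraries at 0 h in 903 regions (45.2%, against 41.7% over all), at 1 h in 823 (41.2%, against 37.5%) and at 6 h in 461 (23.1%, against 35.9%). RNAPII in both libraries with H3K9ac in neither was found in 172 at 0 h (8.61%, against 7.96%), 542 at 1 h (27.1%, against 17.7%) and 509 at 6 h (25.5%, against 12%). In the regions peaked only at 1 h for H3K18ac these shares were higher, at 25.2%, 39.6% and 41.0%. Among the 903 regions with both at 0 h, 236 had no H3K9ac peak at 6 h, and 215 of those 236 (91.1%) had RNAPII in both 6 h libraries. Among regions peaked in all 6 H3K18ac libraries this share was near, at 1282 of 1467 (87.4%). Of the 458 that had H3K9ac in both 6 h libraries, 437 (95.4%) had RNAPII there, against 96.7% in regions peaked in all 6. RNAPII in all 6 libraries together with a loss of H3K9ac from 0 h to 6 h was seen in 215 of the 1998 regions (10.8%, against 2.75% over all). Of the regions peaked only at 1 h 8.70% had the same.

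**Figure D3:**
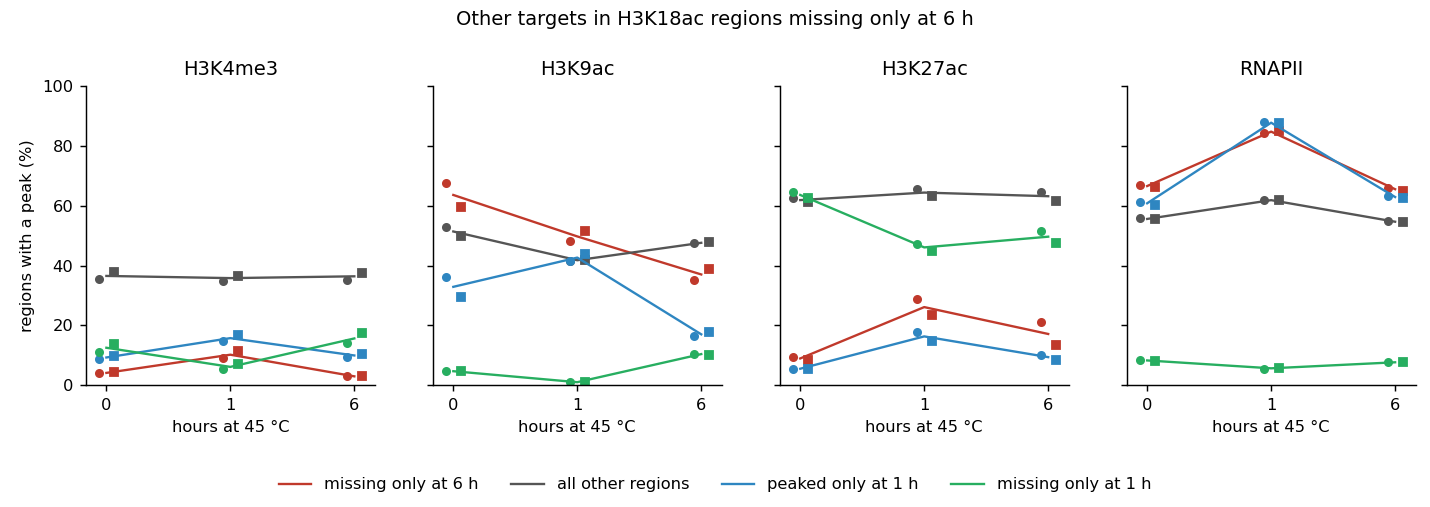
Share of H3K18ac regions overlapped by a peak of each other target, by hours at 45 °C. Circles are replicate 1, squares replicate 2, and lines join the means. In regions missing only at 6 h RNAPII was 66.2% to 67.0% at 0 h and 84.5% to 85.1% at 1 h, and H3K9ac was 35.1% to 39.0% at 6 h.

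H3K27ac was rare in the regions before heat and more frequent afterwards. Its peaks overlapped 191 and 168 of them at 0 h (9.56% and 8.41%), 577 and 468 at 1 h (28.9% and 23.4%) and 420 and 266 at 6 h (21.02% and 13.3%). All heated libraries were above the unheated ones, while all other regions stood at 61.3% to 65.7% throughout. From none at 0 h to both libraries, 212 regions gained H3K27ac at 1 h (10.6%, against 3.31% over all) and 90 at 6 h (4.50%, against 2.34%). In 79 it was in both libraries at 1 h alone (3.95%, against 0.817% over all and 3.17% of the regions peaked only at 1 h). It was in all 6 libraries in 86 (4.30%, against 51.8%) and in none in 1238 (62.0%, against 26.3%). Of the 2 libraries of a time the deeper one had the higher share each time, and the part of depth was not tested. Among regions of 200 to 500 bp the 1 h share was 18.3%, slightly above the 17.5% of all others of that width, the reverse of the order over all widths.

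H3K4me3 was the rarest. Its peaks overlapped 79 and 87 of the regions before heat, 183 and 226 at 1 h (9.16% and 11.3%) and 61 and 59 at 6 h (3.05% and 2.95%). Both 1 h libraries were above all others, and in all other regions the shares were 35.0% to 37.7% at every time. In the 721 regions without a 6 h H3K18ac peak within 500 bp the mean shares were 5.27% at 0 h, 7.14% at 1 h and 3.68% at 6 h. When a peak had to cover 50% of a region, they were 2.38%, 3.63% and 1.63% over all 1998 regions. In 64 regions H3K4me3 was in both libraries at 1 h alone (3.20%, against 0.928% over all and 3.24% of the regions peaked only at 1 h). It was in all 6 libraries in 47 (2.35%, against 30.4%) and in none in 1743 (87.2%, against 58%). H3K9ac in both 0 h libraries with no H3K4me3 peak within 1000 bp was found in 512 (25.6%, against 10.6%).

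**Figure D4:**
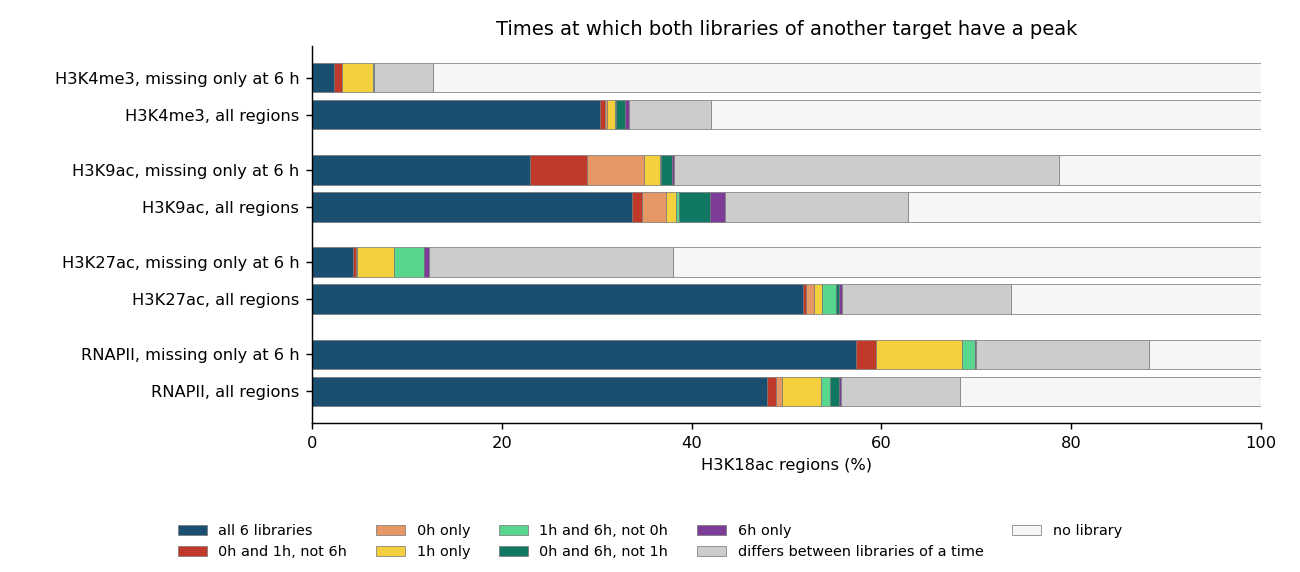
Times at which both libraries of another target had a peak, as a share of the regions missing only at 6 h and of all H3K18ac regions. Grey bars are regions where the 2 libraries of a time differ. RNAPII was in all 6 libraries in 57.3% of the regions missing only at 6 h and H3K27ac in none in 62.0%.

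The difference between these regions and all other H3K18ac regions in the share with a peak was then tested across the 4 targets. From 1 h to 6 h it fell by 11.5 percentage points in the mean, with -7.84 for H3K4me3, -18.5 for H3K9ac, -7.76 for H3K27ac and -12.0 for RNAPII. All 4 targets had the same direction (exact permutation over libraries, two-sided p = 0.00154, the smallest possible, adjusted p = 0.00309 over 4 tests). From 0 h to 1 h it rose by 7.28 points, with 3 targets higher and H3K9ac lower (-4.25), at an exact permutation adjusted p of 0.0288, which became 0.0833 in the replicate block. From 0 h to 6 h the change was -4.26 points and did not pass the test (exact permutation adjusted p = 0.290), with H3K9ac at -22.8, H3K27ac at 6.90 and RNAPII at -0.12. These comparisons share libraries and are not independent of each other.

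Against the 4196 regions with the reverse course, missing H3K18ac only at 1 h, the difference fell by 18.2 points from 1 h to 6 h. It was -16.7 for H3K4me3, -22.1 for H3K9ac, -12.6 for H3K27ac and -21.3 for RNAPII (exact permutation, two-sided p = 0.00154, adjusted p = 0.00309). These tests treat the labelled replicates as separate libraries, although each pair agreed within sampling noise, and the p-values say nothing of the spread between plants. When every pair entered as 1 value, no p below the threshold was possible, and the exact adjusted p for both falls from 1 h to 6 h was 0.250. With the lists cut to equal numbers of peaks the fall against all other regions was -10.2 points, with -17.4 for H3K9ac and -9.68 for RNAPII.

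The near misses, with a peak in 1 of the 2 libraries at 6 h, had RNAPII and H3K9ac shares near these. RNAPII overlapped 67.0% and 66.3% of those 1550 regions before heat, 83.0% and 82.7% at 1 h and 65.2% and 64.2% at 6 h, and H3K9ac 65.2% and 60.1%, 47.0% and 49.9%, and 40.6% and 43.7%. The regions peaked only at 1 h shared the course of RNAPII, which overlapped 61.4% and 60.4% of those 2966 before heat, 87.9% and 87.7% at 1 h and 63.4% and 62.5% at 6 h. Their H3K9ac shares were 36.3% and 29.6% before heat, 41.6% and 43.8% at 1 h and 16.4% and 17.7% at 6 h. The regions missing only at 1 h were unlike both, as 8.34% and 8.29% of them had RNAPII and 64.6% and 62.7% H3K27ac at 0 h. The 912 regions peaked only at 0 h had RNAPII in 12.7% and 13.5% at 0 h. The differences between these classes at a single time were not tested.

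Width went with the share of regions that carried RNAPII or H3K9ac. Since an overlap of 1 bp counts, a wider region is also more readily overlapped. In the narrowest 500 regions, up to 473 bp, the mean of both libraries at 0 h, 1 h and 6 h was 49.9%, 72.1% and 47.5% for RNAPII and 49.1%, 31.8% and 23.8% for H3K9ac. In the widest 502, from 956 bp, it was 81.5%, 93.5% and 81.5% for RNAPII and 79.1%, 68.2% and 52.4% for H3K9ac. RNAPII was highest at 1 h in both groups, and H3K9ac was lower at each later time in both. H3K4me3 differed less with width, at 8.6% in the narrowest 500 and 10.6% in the widest 502 at 1 h.

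The 10 regions with the strongest H3K18ac, ranked by their lowest fold over the 4 earlier libraries, show the range of the other targets. The first, chr12:2053873-2055208, had H3K18ac folds of 5.31 and 5.89 before heat and 6.31 and 6.70 at 1 h and no peak at 6 h, with the nearest remaining peak 127 and 161 bp away. Its H3K9ac folds were 17.7 and 17.1 before heat, 10.5 and 10.1 at 1 h and 6.29 and 6.56 at 6 h. Its RNAPII folds were 8.76 and 9.36, 10.8 and 10.9, and 7.20 and 8.58. H3K9ac was thus lower at each later time there, while RNAPII at 6 h was close to 0 h.

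The second, chr5:3967904-3968270, is only 367 bp wide. It had H3K18ac folds of 4.47 and 5.38 before heat and 4.82 and 5.88 at 1 h. H3K27ac had no peak there at 0 h, folds of 4.38 and 3.52 at 1 h and of 3.07 and 2.94 at 6 h. This region also had the strongest H3K18ac of those that gained H3K27ac by 6 h. RNAPII folds ran from 10.8 to 15.2 over all 6 libraries, so RNAPII was strong throughout.

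Another pair of the 10 shows opposite courses of H3K9ac. At chr3:64145588-64147089 its folds were 20.1 and 24.0 before heat, 3.20 and 3.25 at 1 h and 4.12 and 5.28 at 6 h, beside RNAPII folds of 13.8 to 27.1 in all libraries. At chr12:6003431-6003961 H3K9ac folds were 3.06 and 2.66 before heat and 27.3 and 23.2 at 1 h, with no peak at 6 h, and RNAPII stood at 15.5 and 16.6, 23.9 and 21.8, and 15.0 and 18.5. High RNAPII at 6 h was therefore found with and without H3K9ac.

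The others of the 10 were chr1:1655513-1656266, chr2:46990254-46990822, chr12:5893288-5894862, chr6:48869756-48870069, chr12:68627225-68628275 and chr12:67946457-67947587. At chr1:1655513-1656266 RNAPII folds were 3.87 and 3.70 before heat, 12.002 and 10.5 at 1 h and 3.53 and 3.80 at 6 h. At chr12:68627225-68628275 H3K4me3 had folds of 26.7 and 17.9 at 1 h and no peak at 0 h or 6 h. The nearest H3K4me3 peak at 0 h was 157 and 104 bp from this region. A neighbouring peak that reached further at 1 h is therefore not told apart from a new one. The region chr6:48869756-48870069 was the only one of the 10 with no RNAPII peak in any library, and its H3K18ac folds were 4.33 and 3.86 before heat and 4.60 and 4.16 at 1 h. RNAPII had peaks in all 6 libraries in the other 9.

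**Figure D5:**
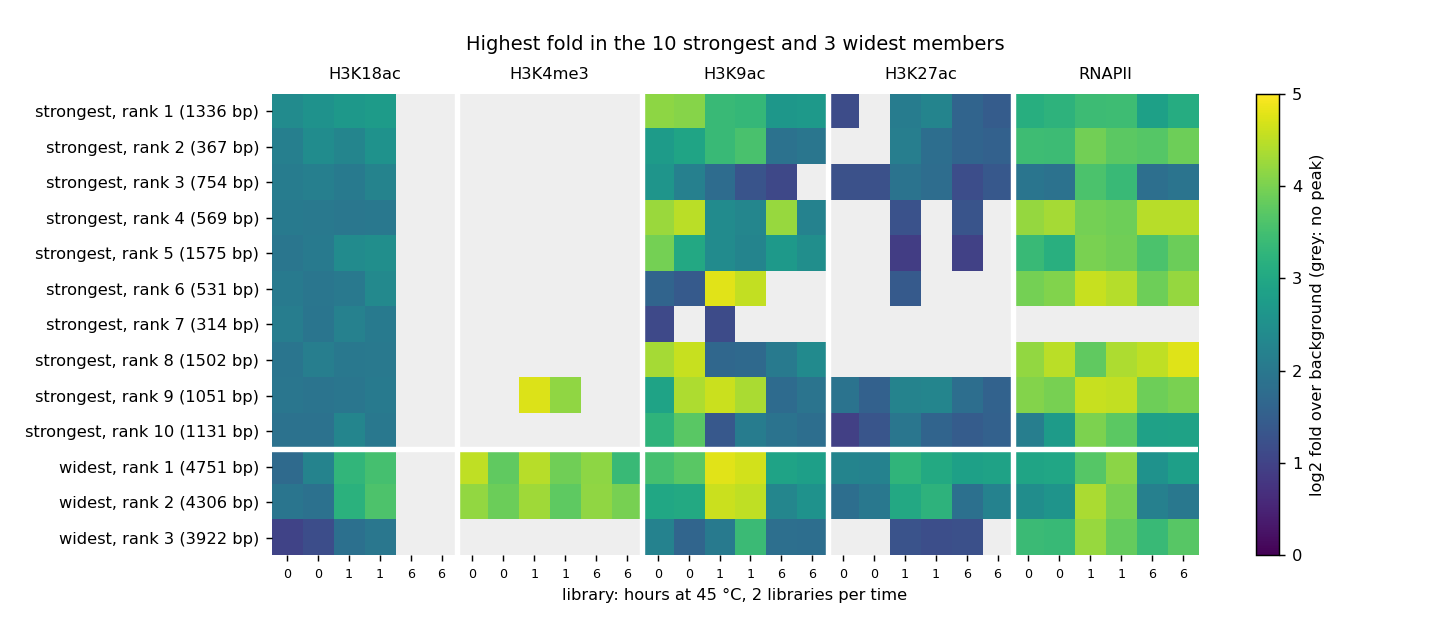
Highest fold over background (log2 colour scale, grey where no peak was called) in the 10 regions of strongest and the 3 of greatest width, by target and hours at 45 °C with 2 libraries per time. H3K18ac is grey at 6 h by the rule, while RNAPII is present at 6 h in 12 of the 13.

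The widest region, chr1:87598353-87603103, spans 4751 bp and had H3K18ac folds of 3.31 and 4.69 before heat and 9.80 and 11.6 at 1 h, with 292 and 246 fragments at the 1 h summit and no peak at 6 h. All other targets had peaks there in both libraries at every time. H3K9ac folds were 11.6 and 13.2 before heat, 27.5 and 25.4 at 1 h and 7.46 and 7.06 at 6 h, and H3K4me3 folds at 6 h were 17.7 and 10.5. The nearest H3K18ac peak at 6 h was 1096 bp away in both libraries.

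The second, chr4:52858262-52862567, had the same course over 4306 bp. Its H3K18ac folds were 3.87 and 3.62 before heat and 9.16 and 12.1 at 1 h, from 312 and 286 fragments. Its RNAPII folds were 5.46 and 6.03, 20.7 and 15.7, and 4.51 and 4.03, and its H3K27ac folds 3.48 and 3.99, 8.05 and 9.43, and 3.58 and 4.65. RNAPII, H3K27ac and H3K9ac were highest there at 1 h and had peaks in both 6 h libraries, and H3K18ac did not. The third, chr3:60758715-60762636, was weak, with H3K18ac folds of 2.00 and 2.27 before heat and 3.57 and 3.96 at 1 h.

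All 4 other targets in both libraries at all times were found in 19 of the 1998 regions (0.951%, against 23% over all). Beside chr4:52858262-52862567, the strongest of these in H3K18ac were chr5:20407500-20408099 and chr12:69604554-69605532. In the first of this pair the 6 h folds were 15.0 and 17.6 for H3K4me3, 18.4 and 18.2 for H3K9ac and 16.8 and 15.8 for RNAPII, without H3K18ac. In the second they were 12.9 and 12.8, 14.7 and 14.6, and 11.3 and 13.1. The nearest 6 h H3K18ac peak was 150 and 176 bp from the first and 766 and 1158 bp from the second.

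At the other end, 14 regions (0.701%, against 0.105% over all) had at least 2 other targets in both 0 h libraries and none of the 4 in any 6 h library. The strongest in H3K18ac was chr6:49175429-49176184, where RNAPII folds were 3.89 and 3.23 before heat and 3.12 and 2.24 at 1 h. H3K9ac folds there were 2.74 and 2.62 at 0 h alone. The nearest 6 h H3K18ac peak was 3968 and 4218 bp away. At chr3:4854944-4856748 RNAPII had folds of 12.7 and 10.6 and H3K9ac of 2.65 and 3.11 at 1 h, and neither had a peak at 6 h. At chr8:59032448-59033384 all peaks of the other targets had folds of at most 2.60.

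No peak of any other target in any library was found in 141 regions (7.06%, against 12.5% over all). The strongest of them, chr9:63963441-63963720, chr6:49035470-49035990 and chr2:48402365-48402646, had H3K18ac folds of 2.69 to 4.27, and all 3 were at most 521 bp wide. The first had 24 and 22 fragments at 0 h and 39 and 31 at 1 h. The medians over all 1998 regions were 27 and 24 at 0 h and 48 and 36 at 1 h.

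Gains of H3K27ac and transient RNAPII were the last groups examined. In both groups regions were ranked by H3K18ac and not by H3K27ac or RNAPII. After chr5:3967904-3968270, the 90 regions with H3K27ac in both 6 h and neither 0 h library had their strongest H3K18ac at chr7:612306-613225 and chr1:3574362-3574734. The 6 h H3K27ac folds of this pair were low, at 2.19 and 2.28 and at 2.49 and 2.13. Of the 181 regions with RNAPII at 1 h alone, those with the strongest H3K18ac were chr5:62382427-62384053, chr4:53297927-53298584 and chr9:7263902-7264441. Their RNAPII folds at 1 h were 2.49 and 2.48, 2.98 and 3.78, and 2.12 and 3.31. These named regions had weak RNAPII peaks next to the median fold of 9.46 and 9.26 over all RNAPII-bearing regions of the kind at 1 h.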

How the data were processed

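Peak lists of 5 targets from 15 groups of 2 libraries were used. Samples labelled H3K27me1 and Input were left out, as no file of theirs was used here. According to the methods and the submitters' processing notes, the authors trimmed reads with Trimmomatic 0.38, mapped them with Bowtie2 2.3.5 and called peaks per library with MACS2 2.2.7.1 against the input. A q cutoff of 0.05 and broad peaks are named in the methods, whereas the deposited lists are narrow peaks that reach a p-value of 0.05. The deposited columns are a fold over background (a ratio) and a p-value and q-value as −log10. All deposited peaks were used.

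The members and lists were chosen with earlier results of these data known. A region counted as overlapped from 1 bp. The fold of a region is the highest among its overlapping peaks, whose summits may lie outside it for targets other than H3K18ac. Fragments were recovered within 0.001 of the deposited −log10 p, below 280, for at least 99.978% of such peaks, and 4 libraries scaled down by MACS2 were rescaled. Replicates were compared at summits within 30 bp with at least 60 fragments together. Tests permuted the time labels of libraries within each target in 1296 arrangements, with Benjamini-Hochberg adjustment over 4. Regions were named by rank: the 10 strongest in H3K18ac, the 3 widest, and the 3 strongest in H3K18ac of each of 5 classes of the other targets. Alternatives were q cutoffs, equal numbers of peaks, single replicates, other widths, gaps and overlaps, regions of like width or strength, a replicate block and each pair counted once. Steps were tested on simulated data. Python 3.11.15 with numpy 2.4.6, pandas 2.3.3 and scipy 1.17.1 was used.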

Additional observations from a re-analysis of the deposited data

Results flagged for a closer look

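The targets moved in opposite directions in the same contrast, in the share of the regions missing H3K18ac only at 6 h that carry a peak minus that share in all other H3K18ac regions. From 0 h to 6 h the value changed by -22.8 percentage points for H3K9ac and by 6.90 for H3K27ac, with no overlap between the libraries of the 2 times for either. From 0 h to 1 h H3K9ac changed by -4.25 points, while H3K4me3 changed by 6.81, H3K27ac by 14.7 and RNAPII by 11.9, again without overlap between libraries. The differences between targets were not tested. For H3K27ac the change from 0 h to 6 h was of the other sign with peaks covering 50% of a region (-1.99) and with the mean covered share (-0.12). From 0 h to 1 h the signs held with peaks covering 50% of a region, but the sizes were unlike the main ones. They were 1.60 for H3K4me3, 1.74 for H3K27ac, 22.2 for RNAPII and -9.8 for H3K9ac. H3K9ac depth was lower at both heated times than at 0 h, and its part in these values was not tested.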

How the results depend on the processing

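The number of regions stayed within 1.5 times of 1998 under 6 of 9 alternatives. It was 5135 to 5285 with either replicate left out, and 721 when no 6 h H3K18ac peak was allowed within 500 bp. All 4 tested differences kept their direction under all 15 alternatives. The 2 falls from 1 h to 6 h kept an adjusted p of at most 0.0156 under 12 of them, replicate block included. With each labelled pair counted once they were -11.5 and -18.2 with an adjusted exact p of 0.250, and with a replicate left out -11.3 to -11.0 and -17.4 to -16.4, where no lower p is possible. The rise from 0 h to 1 h no longer passed with peaks covering 50% of a region (3.94 points), with the mean covered share (4.42), in regions of 200 to 500 bp (3.61), in the replicate block and with each pair counted once (7.28 in both, with an adjusted exact p of 0.0833 in the block), and with a replicate left out (6.41 to 7.52). The change from 0 h to 6 h passed only with peaks covering 50% of a region (-6.93) and with the mean covered share (-5.83), and was -4.59 to -3.74 with a replicate left out. The causes were not tested. Replicate numbers are shared in the labels without a stated pairing, and deviations of same-numbered libraries between times correlated from -0.00060 to 0.45 over 15 comparisons across regions, so the replicate block is given only as an alternative. The order of these regions and all others was unlike the main one for H3K9ac at 6 h and H3K27ac at 1 h in regions of 200 to 500 bp, for H3K9ac at 6 h in regions of like strength, and for H3K9ac at 1 h without replicate 2. Peak calls limit what can be said: absence of a peak is no measured level, and a decrease below the calling threshold is not told apart from loss.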

Other observations

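H3K9ac and RNAPII, and H3K27ac at 1 h and 6 h, were more frequent where H3K18ac had been stronger. In the 499 regions with the lowest H3K18ac strength (lowest fold of the 4 earlier libraries up to 1.85), the mean share with an H3K9ac peak was 47.3% at 0 h and 23.1% at 6 h, and the share with H3K27ac was 19.2% at 1 h. In the 500 strongest (from 2.34) the H3K9ac shares were 82.7% and 55.7%, and the H3K27ac share at 1 h was 41.6%. H3K4me3 did not follow this order, with 8.42% in the weakest and 10.7% in the strongest at 1 h against 11.1% in the group below the strongest. Before heat H3K27ac was 7.5% in the weakest, 6.7% in the group below the strongest and 14.9% in the strongest. RNAPII at 6 h was 54.6% in the weakest and 77.7% in the strongest. These are values of overlapping peak calls, and no test was made.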
